A study of Mus musculus with 8 samples.

Results

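The desmosomal cadherins, plakophilins and corneodesmosin were examined in mouse skin as a set of 10 genes, chosen by name from the 22740 protein-coding genes listed in the count table. They were the desmogleins Dsg1a, Dsg1b, Dsg2 and Dsg3, the desmocollins Dsc1, Dsc2 and Dsc3, corneodesmosin (Cdsn), and the plakophilins Pkp1 and Pkp3. All 10 were listed once and passed the filter on low counts, through which 15163 genes were tested.

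Desmosomes are the spot junctions that hold keratinocytes together. Desmogleins and desmocollins are calcium-dependent cadherins whose outer parts join neighbouring cells, while their inner parts bind plakoglobin and plakophilins, which link through desmoplakin to keratin filaments. In the epidermis Dsg3 and Dsc3 are strongest in the lower layers, Dsg1 and Dsc1 in the upper layers, and corneodesmosin is added to the junctions of the uppermost layers, whose proteolysis lets corneocytes shed. Loss of desmoglein 1 or of corneodesmosin is known to open the skin barrier, and antibodies against desmogleins 1 and 3 cause pemphigus.

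RNA sequencing had been performed on dorsal skin of 8 female BALB/c mice, sequenced singly and divided equally among 4 groups of 2, to compare how oral butyrate bears on skin exposed to house dust mite (HDM). All groups were labelled 6 to 8 weeks old and, by the study's methods, were fed a low-fibre diet. Baseline CTL mice (Vehicle in the labels) and baseline butyrate mice (SCFA) received no allergen, whereas lesional CTL and lesional butyrate mice (atopic dermatitis) had 15 µg of HDM laid on shaved skin under an occlusive dressing 4 times over 2 weeks. Butyrate was 400 mM sodium butyrate in the drinking water, begun 2 weeks before HDM and continued, and baseline skin was taken when butyrate ended. Baseline mice carry 5 and lesional mice carry 6 as the first number of their labels. HDM, shaving, dressing and this difference between sets of mice cannot be told apart. The second number of the labels is the same in all CTL mice and differs from that of all butyrate mice, and its meaning is not stated. Butyrate and whatever this second number stands for cannot be told apart either. Mice are named below by group and by the replicate number in their label. In whole skin, fewer cells of a type and less RNA per cell cannot be told apart.

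Library totals lay between 18004136 and 21085544 counts, at which 3 counts equal 0.138 to 0.169 CPM, the unit of normalised read counts used throughout (counts scaled to a common library size with TMM factors). Keratinocyte markers were abundant in every mouse, for instance Krt14, the basal keratin, at 2413 to 5904 CPM. Baseline butyrate replicate 3 stood apart from its group. Its summed level of 6 listed hair matrix and inner root sheath keratins was 10721 CPM, against 2.29 to 4.71 in the other 7 mice, and its 5 suprabasal markers summed to 3177 CPM, against 13459 in baseline butyrate replicate 1. These 2 mice were over 2-fold apart for 3797 of 14245 genes, whereas the other pairs were so for 146 to 574. Values that rest on the baseline butyrate group depend on this pair.

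Of the 10 genes, 7 lie in 1 cluster on chromosome 18 (GRCm38, 19960930 to 20604521, 644 kb), where Dsc3, Dsc2 and Dsc1 are on the minus strand and Dsg1c, Dsg1a, Dsg1b, Dsg4, Dsg3 and Dsg2 follow on the plus strand without overlapping one another. The gene of Pkp1 is on chromosome 1 (135871395 to 135919207, minus strand) and that of Pkp3 on chromosome 7 (141078218 to 141090510, plus strand). Dsg1a and Dsg1b are close copies. Of the 50-base words in their transcripts, 35.0% of those in Dsg1a and 48.4% of those in Dsg1b recur in another Dsg1 gene, so that reads from these stretches cannot be assigned to 1 copy with certainty, and the sum of Dsg1a, Dsg1b and Dsg1c is given beside the single genes.

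Per length of exon, 4 of the genes stood at the top in untreated skin. In baseline CTL mice Pkp1 stood at 188 ± 13.0 CPM per kb (SD, n = 2), Cdsn at 185 ± 37.8, Dsc3 at 160 ± 30.1 and Dsg1a at 159 ± 22.6. Neighbours in this order overlapped, whereas both mice of Pkp1 (197 and 178) were above both of Dsg1a (175 and 143). Pkp3 followed at 86.9 ± 3.23 and Dsc1 at 37.7 ± 4.22. Lower still were Dsg3 at 20.8 ± 3.68, Dsg1b at 14.4 ± 2.66, Dsg2 at 5.41 ± 0.905 and Dsc2 at 2.41 ± 0.396, and from Pkp3 downwards each gene's 2 mice were below both mice of the gene before it. In lesional CTL mice the order differed around Dsg1a, which stood at 67.2 ± 4.98 CPM per kb, below Pkp3 at 86.9 ± 3.27, and Cdsn stood at 105 ± 12.4, below Dsc3 at 159 ± 12.4.

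Dsg1a, the main desmoglein of the upper epidermis, stood at 996 and 814 CPM in baseline CTL replicates 1 and 2, at 1014 and 703 in baseline butyrate replicates 1 and 3, at 362 and 402 in lesional CTL replicates 4 and 5, and at 809.5 and 658 in lesional butyrate replicates 3 and 4. The 2 lesional CTL mice were the lowest of all 8, and the next lowest stood at 658. Dsg1b, its copy, stood at 64.4 and 49.5 CPM in baseline CTL mice, at 59.5 and 59.2 in baseline butyrate mice, at 103 and 95.8 in lesional CTL mice and at 116 and 103 in lesional butyrate mice. Here all 4 lesional mice were above all 4 baseline mice, the opposite order to Dsg1a in CTL skin.

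Dsg3, the desmoglein of the lower layers, stood at 163 and 127 CPM in baseline CTL mice, at 113 and 199.7 in baseline butyrate mice, at 245 and 187 in lesional CTL mice and at 169 and 145 in lesional butyrate mice. Lesional CTL replicate 4 was the highest, and the 2 baseline butyrate mice were the lowest and the second highest. Dsg2, the desmoglein of simple epithelia, heart and hair follicle, stood between 36.5 and 53.1 CPM in 7 mice and at 112 in baseline butyrate replicate 3. Its group ranges otherwise lay close together.

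Dsc1, the desmocollin of the upper layers, stood at 205 and 175 CPM in baseline CTL mice, at 240.2 and 292 in baseline butyrate mice, at 230.1 and 224 in lesional CTL mice and at 348 and 281 in lesional butyrate mice. Both butyrate groups were above the CTL group of the same skin. Dsc3, the desmocollin of the lower layers, stood at 977 and 747 CPM, 851 and 1013, 906 and 811, and 991 and 898 in the same order of groups. Its lowest and highest mice were 1.36-fold apart, the narrowest range of the 10 genes. Dsc2, the broadly expressed desmocollin, stood at 14.2 and 11.2 CPM in baseline CTL mice, at 12.1 and 103 in baseline butyrate mice, at 42.2 and 25.0 in lesional CTL mice and at 29.1 and 25.4 in lesional butyrate mice. It had the widest range, and baseline butyrate replicate 3 alone was above all lesional mice.

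Cdsn, a glycoprotein of the cornified and granular layers, stood at 566 and 423 CPM in baseline CTL mice, at 419.7 and 314 in baseline butyrate mice, at 258 and 305 in lesional CTL mice and at 699 and 505 in lesional butyrate mice. Lesional CTL mice were the lowest pair, and the highest value was in lesional butyrate replicate 3.

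The gene of Cdsn is at chr17:35552128-35557180 on the plus strand. It was the only 1 of the 10 genes matched in the RefSeq promoter table used here, and the 250 bases before its start are shown because Cdsn had the largest butyrate value of the 10 in lesional skin (GRCm38.p6, chr17:35551878-35552127, plus strand, 5′ to 3′). Capitals mark 3 matches to the E-box CANNTG, at 213, 173 and 101 bases before the start, and 1 match to CACCC, a core of KLF sites, at 34 bases.
Cdsn promoter: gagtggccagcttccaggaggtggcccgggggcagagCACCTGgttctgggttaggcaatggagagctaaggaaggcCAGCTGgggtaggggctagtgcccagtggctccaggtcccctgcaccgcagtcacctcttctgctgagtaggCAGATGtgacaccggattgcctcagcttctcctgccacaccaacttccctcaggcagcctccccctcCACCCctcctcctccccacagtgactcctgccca
On either strand, CANNTG occurs in 66.2% and CACCC in 52.0% of 32851 promoter stretches of this length, so that both matches are common. The letters TGANTCA (AP-1, in 6.75% of promoters), AACCGGTT (GRHL, in 0.116%), CCAAT (in 33.8%) and TATAAA (in 12.4%) were not in this stretch.

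Pkp1, the plakophilin of the upper epidermis, stood at 988 and 896 CPM in baseline CTL mice, at 912 and 967 in baseline butyrate mice, at 1099 and 933 in lesional CTL mice and at 1276 and 1048 in lesional butyrate mice. Pkp3, found through all layers, stood at 323 and 306 CPM, 281 and 437, 322 and 306, and 375 and 270.3 in the same order. Lesional butyrate replicate 3 was highest for Pkp1 and baseline butyrate replicate 3 for Pkp3. The groups overlapped for both genes in every comparison except for Pkp1 between lesional and baseline butyrate mice, and the extremes over the 8 mice were 1.42-fold and 1.61-fold apart.

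**Figure D1:**
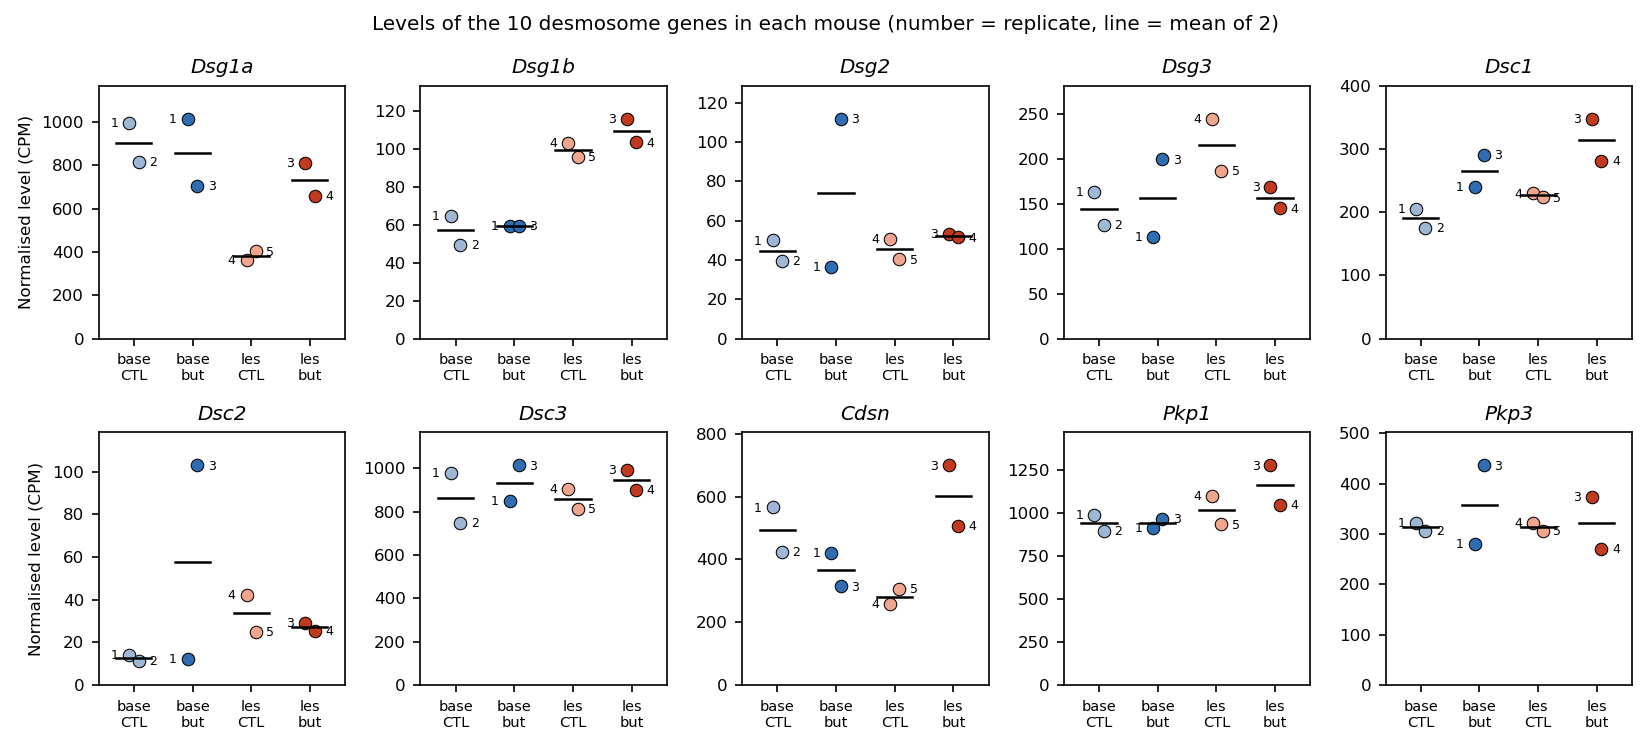
Normalised level (CPM, linear axis from 0) of each of the 10 genes in baseline (base) and lesional (les) skin of CTL and butyrate (but) mice, 1 point per mouse with its replicate number and a line at the mean of 2 mice. The lesional CTL mice hold the lowest Dsg1a (362 and 402) and Cdsn (258 and 305), and baseline butyrate replicate 3 is far above the rest for Dsg2 (112) and Dsc2 (103).

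HDM exposure in CTL mice went with less Dsg1a, and with no other difference among the 10 genes that passed both thresholds, an FDR below 0.1 and a fold-change above 2 in edgeR's quasi-likelihood test over all tested genes. Dsg1a fell to 0.422 of its baseline level (log2 fold change -1.24 ± 0.26 SE, FDR 0.0738), so that 1 of 10 genes was called, where 3.58% of all tested genes were. Dsg1b passed the FDR but not the fold-change threshold, in the opposite direction (0.80 ± 0.16, FDR 0.0701), and 4.83% of all genes passed that FDR alone. Summed over Dsg1a, Dsg1b and Dsg1c, the difference was -0.997 ± 0.25 (FDR 0.113) and was not called. With limma-voom and with DESeq2 the call of Dsg1a was kept (FDR 0.0557 and 1.57e-04), in fits that called 3.81% and 7.21% of all genes. By DESeq2, Dsg1b (0.82 ± 0.20, FDR 0.00159) and Cdsn (-0.80 ± 0.29, FDR 0.0645) also passed the FDR but not the fold-change threshold.

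Cdsn had the next most negative value (-0.81 ± 0.27, unadjusted p = 0.0210, FDR 0.181), and Dsc2 the most positive (1.402 ± 0.87, FDR 0.401). Dsg3 was at 0.58 ± 0.30 (FDR 0.340) and Dsc1 at 0.25 ± 0.18 (FDR 0.456). For Dsg2, Dsc3, Pkp1 and Pkp3 the values lay between -0.01 and 0.11, each smaller than its standard error. The groups did not overlap for 6 of the 10 genes, against 75.2% of all tested genes. The median over the 10 was 0.07 and over all tested genes -0.02. An unadjusted p below 0.05 was found for 3 of the 10, against 2983 of all 15163 tested genes.

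The call of Dsg1a depended on single mice. Leaving out baseline CTL replicate 1 or 2 gave an FDR of 0.506 or 0.335, leaving out lesional CTL replicate 4 or 5 gave 0.584 or 0.376, and leaving out lesional butyrate replicate 3 or 4 gave 0.157 or 0.156, with log2 values from -1.38 to -1.09. Without baseline butyrate replicate 1 or 3 the standard error was 0.17 in place of 0.26, and the FDR was 0.00618 or 0.00649. Dsc2 was then called too (FDR 0.0163 or 0.0167), in fits that called 12.3% and 12.5% of all genes, and likewise when only the 4 CTL mice were fitted (FDR 0.0159, 12.9% of all genes).

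Markers of cell types moved over the same comparison, in which 2983 of all 15163 tested genes had an unadjusted p below 0.05. The 5 suprabasal markers summed to 13949.6 and 14752 CPM in baseline CTL mice and to 5966 and 6678 in lesional CTL mice, with 4 of 5 fitted values below 0, 0 called by edgeR and 1 at an unadjusted p below 0.05. The 6 granular layer markers summed to 2295 and 2690.4, then 1298 and 1373 CPM, although 3 of the 6 had fitted values above 0 (Ivl, Casp14 and Asprv1, 0.07 to 0.69) and 3 below 0 (Lor, Flg2 and Lce1a1, -2.84 to -1.42), with 0 called by edgeR and 3 at an unadjusted p below 0.05. The 4 injury keratinocyte markers summed to 1015 to 1164 and then 5571 to 8526 CPM, and Krt6a (2.78 ± 0.49, FDR 0.0532), Krt6b (6.38 ± 0.65, FDR 0.0230) and Krt16 (5.03 ± 0.36, FDR 0.00725) were called higher. The 4 neutrophil markers, S100a8, S100a9, Cxcr2 and Csf3r, were all called higher and summed to 13.0 to 16.7 and then 1612 to 2633 CPM, while 4 skeletal muscle markers summed to 28313 to 36968 and then 12439 to 18341 CPM. The part of these lists in the values of Dsg1a, Cdsn and the other genes was not tested. Over the same comparison Krt14 was at 0.94 ± 0.25 (FDR 0.131) and Krt1, the suprabasal keratin, at -1.16 ± 0.83 (FDR 0.457). The 6 basal keratinocyte markers were divided, 3 above and 3 below 0 with a median of -0.08, among them Krt15 at -1.80 ± 0.44 (FDR 0.109) and Col17a1 at -0.96 ± 0.41 (FDR 0.267). The markers of the granular and basal lists other than Krt14 were named after their values were seen.

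Within lesional skin, Cdsn and Dsg1a had the largest differences between butyrate and CTL mice, both higher with butyrate, but neither passed the test. For Cdsn the log2 fold change was 1.10 ± 0.27 (2.14-fold, unadjusted p = 0.00565, FDR 0.737), for Dsg1a 0.94 ± 0.25 (1.92-fold, unadjusted p = 0.00904, FDR 0.778) and for Dsc1 0.47 ± 0.18 (unadjusted p = 0.0383, FDR 0.970). Hence 0 of the 10 genes were called by edgeR, as were 0% of all genes. An unadjusted p below 0.05 was found for 3 of 10, against 4.84% of all genes. With limma-voom 0 of the 10 were called, and 1 of all genes. At the same thresholds, the paper reported a list of differentially expressed genes for this comparison, also with voom and limma. The cause of this difference was not tested. With DESeq2 1 of the 10 was called, Cdsn (1.09 ± 0.29, FDR 0.0325), among 0.818% of all genes. In DESeq2 Dsg1a passed the FDR but not the fold-change threshold (0.94 ± 0.27, FDR 0.0519). When edgeR was fitted to only the 4 lesional mice, the standard errors were smaller and neither gene was called, in a fit that called 0.168% of all genes. Cdsn was then at 1.10 ± 0.21 (FDR 0.180) and Dsg1a at 0.94 ± 0.17 (FDR 0.164). The fit on all mice took its spread from every group, including the baseline butyrate pair, whose mice were far apart. Without replicate 1 or replicate 3 of that pair, Cdsn was at 1.10 ± 0.22 and Dsg1a at 0.94 ± 0.17. The absence of edgeR calls therefore does not show that butyrate left lesional skin unchanged. Both lesional butyrate mice were above both lesional CTL mice for Dsg1a, Dsg1b, Dsg2, Dsc1 and Cdsn and below them for Dsg3, thus for 6 of 10 genes without overlap, against 44.9% of all tested genes.

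Dsg3 was the gene of the set with the most negative value, -0.46 ± 0.30 (FDR 1.00), and Dsc2 was at -0.30 ± 0.85. Dsg1b, Dsg2, Dsc3, Pkp1 and Pkp3 lay between 0.04 and 0.20, with standard errors from 0.16 to 0.48. The median over the 10 genes was 0.17 and over all tested genes -0.01. Summed, the Dsg1 genes were at 0.81 ± 0.25 (FDR 0.867).

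The differentiation markers differed along with them. Suprabasal markers summed to 11383 and 14741 CPM in lesional butyrate mice, against 5966 and 6678 in lesional CTL mice, and granular markers to 2183 and 3598, against 1298 and 1373 CPM, with all 5 and all 6 fitted values above 0, 0 called by edgeR, and 0 and 2 at an unadjusted p below 0.05. Injury keratinocyte markers summed to 3485 and 4847 CPM, against 5571 and 8526, and neutrophil markers to 343 and 768, against 1612 and 2633 CPM. Krt1 was at 1.25 ± 0.83 (FDR 1.00) and Krt14 at -0.16 ± 0.25 (FDR 1.00). The 2 lesional butyrate mice differed in other cell types: replicates 3 and 4 had fibroblast markers summing to 3220.0 and 8236 CPM and skeletal muscle markers to 10503 and 19191, against 6080 to 6734 and 12439 to 18341 in lesional CTL mice. Replicate 3 of this pair had the higher level of every gene of the set, Cdsn and Dsg1a among them. Whether the share of upper-layer or other cells accounts for the values of Cdsn and Dsg1a was not tested.

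**Figure D2:**
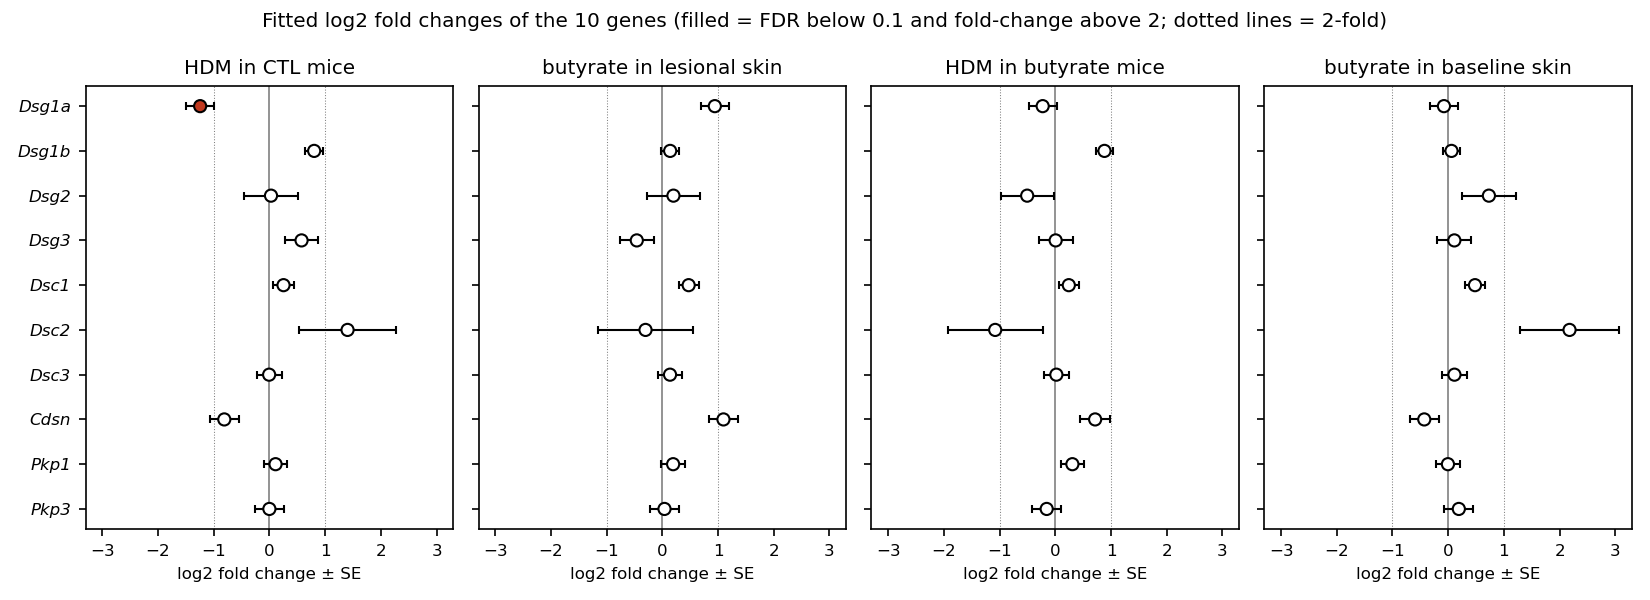
Log2 fold change ± SE of each gene in 4 comparisons fitted by edgeR on all 8 mice (2 per group), with dotted lines at 2-fold and a filled point where FDR is below 0.1 and fold-change above 2. Dsg1a in CTL mice after HDM (-1.24) is the only filled point, and Cdsn has opposite signs in its HDM comparisons in CTL (-0.81) and butyrate mice (0.72).

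In butyrate-treated mice, HDM exposure was accompanied by higher Dsg1b and Cdsn, though no gene of the set was called. Dsg1b was at 0.88 ± 0.16 (unadjusted p = 0.00122, FDR 0.148), Cdsn at 0.72 ± 0.26 (unadjusted p = 0.0339, FDR 0.342) and Dsg1a at -0.23 ± 0.25 (FDR 0.757). The value of Dsg1a depended on the baseline mouse used. It was -0.47 without baseline butyrate replicate 3 and 0.07 without baseline butyrate replicate 1. Thus 0 of 10 genes were called by edgeR, where 0.350% of all genes were, 2 of 10 had an unadjusted p below 0.05, against 13.1% of all genes, and limma-voom and DESeq2 called 0. By DESeq2, which called 4.60% of all genes, Dsg1b passed the FDR but not the fold-change threshold (0.90 ± 0.20, FDR 7.84e-04). Dsg1b, Cdsn and Pkp1 had no overlap between the groups, 3 of 10 genes against 32.5% of all tested genes. Dsc2 (-1.08 ± 0.86, FDR 0.650) and Dsg2 (-0.50 ± 0.48, FDR 0.711) turned sign without baseline butyrate replicate 3, to 1.17 and 0.52. Without baseline butyrate replicate 1, by contrast, both were called lower, in a fit that called 19.1% of all genes. Suprabasal markers summed to 13459 and 3177 CPM in baseline butyrate mice and to 14741 and 11383 in lesional butyrate mice, and injury keratinocyte markers to 1036 and 3324 and then 4847 and 3485 CPM. Their part in these values was not tested.

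Dsg1b thus stood higher after HDM in both CTL and butyrate mice, at 0.80 and 0.88 on the log2 scale, without passing both thresholds in either. Since the copies share sequence, the ratio of Dsg1a to Dsg1b counts is also given. It was 15.5 and 16.5 in baseline CTL mice, 17.0 and 11.9 in baseline butyrate mice, 3.52 and 4.20 in lesional CTL mice and 7.001 and 6.37 in lesional butyrate mice. All 4 lesional mice were below all 4 baseline mice, and the lesional butyrate pair lay between the others.

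In baseline skin, butyrate gave no called gene, and the 2 butyrate mice disagreed on most of the set. Dsc1 was at 0.48 ± 0.18 (unadjusted p = 0.0357, FDR 0.714) with both butyrate mice above both CTL mice, and Cdsn at -0.43 ± 0.26 (FDR 0.714) with both below. These were the 2 of 10 genes without overlap, against 29.7% of all tested genes. Dsc2 was at 2.18 ± 0.89 (unadjusted p = 0.0482, FDR 0.714), which rested on baseline butyrate replicate 3 and was -0.07 without it, and Dsg2 was at 0.73 ± 0.48 with it and -0.29 without it. By edgeR 0 of the 10 genes were called, as were 0% of all genes, 2 had an unadjusted p below 0.05, against 3.49% of all genes, and limma-voom and DESeq2 called 0. Without baseline butyrate replicate 1, so that replicate 3 stood alone, Dsg2 (1.32) and Dsc2 (3.01) were called, in a fit that called 24.1% of all genes.

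Dsg2, Dsc2 and Pkp3 were 3.06-fold, 8.52-fold and 1.55-fold higher in baseline butyrate replicate 3 than in replicate 1, Dsg3 was 1.77-fold higher, and Dsg1a and Cdsn were at 0.693 and 0.748 of replicate 1. Dsg4, the desmoglein of the hair shaft, was at 163 CPM in this mouse and at no more than 0.554 in the others, and Pkp2, the plakophilin of heart and simple epithelia, at 20.9 CPM against 4.86 to 8.20 (both chosen after their values were seen). The inner root sheath keratins Krt25 and Krt71 were also chosen in this way. In this mouse they were at 3019 and 3872 CPM, against at most 1.06 and 1.61 in the other mice. The part of hair follicle RNA in the values of this mouse was not tested.

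The effect of butyrate was then compared between lesional and baseline skin by the interaction term of the same fit. Cdsn had the smallest p of the 10, with a difference of 1.53 ± 0.37 on the log2 scale (unadjusted p = 0.00592, FDR 0.840), followed by Dsg1a (1.02 ± 0.36, unadjusted p = 0.0274, FDR 0.840). Dsc2 was at -2.48 ± 1.22 (unadjusted p = 0.0866, FDR 0.840), and Dsc1, which stood higher with butyrate in both kinds of skin, was at -0.01 ± 0.26. No gene of the 10 was called by edgeR, as was 0% of all genes, 2 had an unadjusted p below 0.05, against 4.64% of all genes, limma-voom called 0, and DESeq2 called 1, Cdsn (1.52 ± 0.42, FDR 0.0937), among 0.244% of all genes. Without baseline butyrate replicate 3 the values of Cdsn and Dsg1a were 1.33 and 0.78 (FDR 0.474 and 0.525). Without baseline butyrate replicate 1 they were 1.76 and 1.31, and Cdsn, Dsg1a, Dsg2 and Dsc2 were called, in a fit that called 20.9% of all genes. The comparisons share control samples, so that the value of 1 group enters several of them.

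The balance of upper-layer to lower-layer desmogleins was next described within each library, where scaling between libraries does not enter. The ratio of Dsg1a and Dsg1b to Dsg3 counts was 6.50 and 6.82 in baseline CTL mice, 9.50 and 3.82 in baseline butyrate mice, 1.90 and 2.66 in lesional CTL mice, and 5.47 and 5.25 in lesional butyrate mice. Lesional CTL mice had the lowest ratios of all, and lesional butyrate mice lay between them and baseline CTL mice. Dsg1a held most of this sum. With Dsg1b alone over Dsg3 the order was not kept, as the ratio was 0.395 and 0.391 in baseline CTL mice, 0.420 and 0.512 in lesional CTL mice and 0.683 and 0.713 in lesional butyrate mice. On the log2 scale HDM in CTL mice went with -1.57 and butyrate in lesional skin with 1.25 (0.24 and 0.59 with Dsg1b alone), where the SDs within these groups were 0.05, 0.34 and 0.04. With 2 mice against 2 an exact permutation test cannot go below p = 0.333, so no test of the ratio was made. In baseline skin the 2 butyrate mice were on opposite sides of the CTL mice (difference -0.15, SD 0.93 within the butyrate group).

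The ratio of Dsc1 to Dsc3 counts moved within a much smaller span. It was 0.210 and 0.235 in baseline CTL mice, 0.282 and 0.288 in baseline butyrate mice, 0.254 and 0.276 in lesional CTL mice, and 0.351 and 0.313 in lesional butyrate mice. Both butyrate groups were above the CTL group of the same skin, by 0.36 in baseline and 0.33 in lesional skin on the log2 scale, and baseline CTL mice were the lowest. The desmocollin ratio therefore did not have its minimum in the mice in which the desmoglein ratio had it.

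As shares of the transcript pool per exon length, Dsg1a made up 79.2% and 80.1% of the 6 desmogleins in baseline CTL mice, 48.5% and 55.7% in lesional CTL mice and 70.4% and 68.4% in lesional butyrate mice. Dsg3 made up 10.6% and 10.1%, then 26.7% and 21.1%, then 12.0% and 12.3%, and Dsg1b 7.35% and 6.98%, then 19.8% and 19.0%, then 14.4% and 15.4%. The share of Dsg1a was thus lower in lesional CTL than in baseline CTL and lesional butyrate mice, and the total of the pool was the lowest of all 8 mice, at 131 and 127 CPM per kb, against 221 and 179 in baseline CTL mice and 202 and 169 in lesional butyrate mice. In baseline butyrate replicate 1 Dsg1a made up 83.2%, whereas in replicate 3 Dsg1a was 54.3% and Dsg4 20.6%.

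The other pools were steadier. Dsc3 made up 70.8% to 80.6% of the desmocollins in every mouse, and Dsc2 1.11% to 3.62% except in baseline butyrate replicate 3, where it was 7.37%. Pkp1 made up 60.7% to 73.3% and Pkp3 26.3% to 38.1% of the 3 plakophilins, with Pkp2 at no more than 1.23%.

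**Figure D3:**
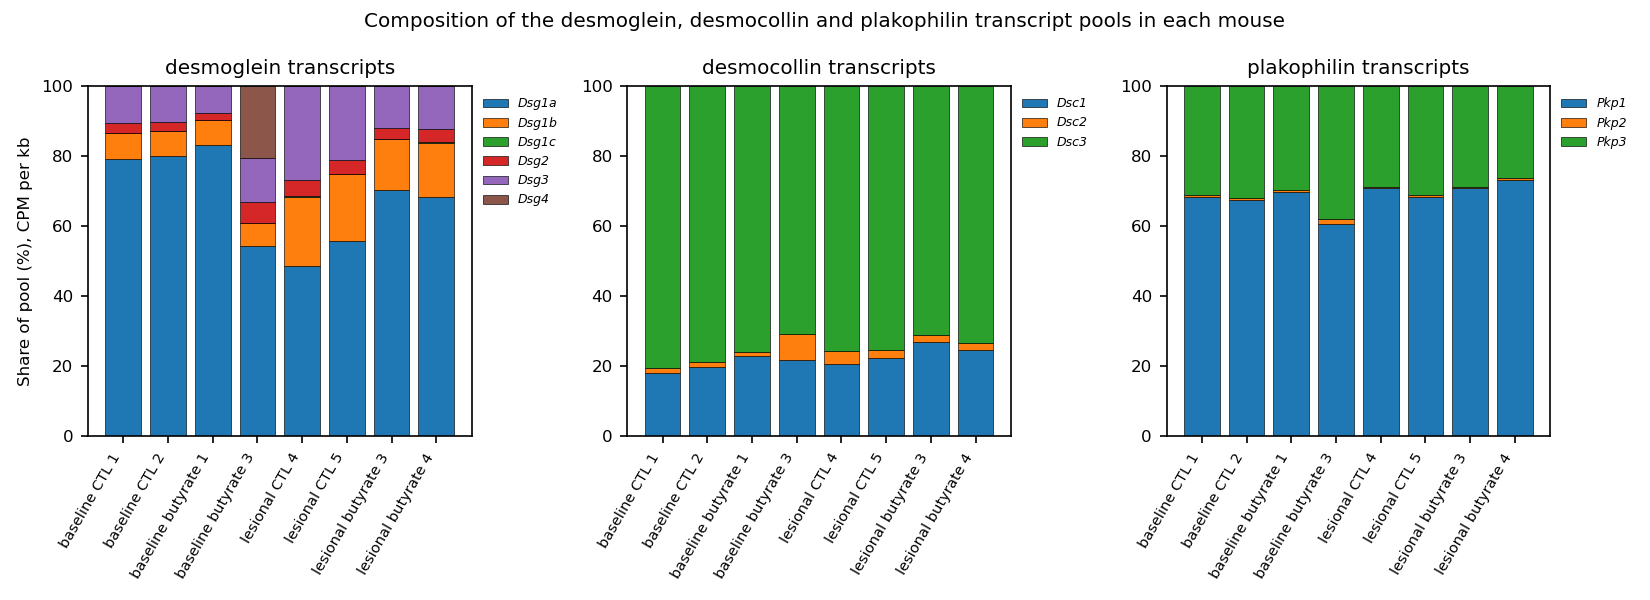
Composition of the desmoglein, desmocollin and plakophilin transcript pools in each of the 8 mice, as stacked percentages of CPM per kb of exon. Dsg1a makes up 48.5% and 55.7% of desmoglein transcripts in lesional CTL mice and at least 68.4% in the other mice except baseline butyrate replicate 3 (54.3%), in which Dsg4 makes up 20.6%.

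The 9 other desmosome genes examined were the plaque proteins Dsp, Jup, Evpl, Ppl, Pkp2 and Pkp4, the tetraspan Perp, and the desmogleins Dsg1c and Dsg4. By edgeR 0 of the 9 were called in any of the 5 comparisons. An unadjusted p below 0.05 was found for 2 of 9 after HDM in CTL mice, against 2983 of all 15163 tested genes. After HDM in butyrate mice it was found for 3 of 9, against 13.1% of all genes. Each other comparison had 1 of 9, against 3.49% to 4.84% of all genes. After HDM in CTL mice 7 of 9 had values below 0, with a median of -0.24. Desmoplakin (Dsp), the link to keratin, was at -0.50 ± 0.25 (FDR 0.316), plakoglobin (Jup) at -0.20 ± 0.17 (FDR 0.526) and Perp at -0.34 ± 0.26 (FDR 0.475). Periplakin (Ppl), a plakin of the cornified envelope, passed the FDR but not the fold-change threshold (-0.91 ± 0.21, FDR 0.0919). Its levels were 609 and 543 CPM in baseline CTL mice, 556 and 419 in baseline butyrate mice, 301 and 310 in lesional CTL mice and 508 and 412 in lesional butyrate mice, so that the lesional CTL mice were lowest, as for Dsg1a.

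With butyrate in lesional skin, Dsp was at 0.34 ± 0.25, Jup at 0.28 ± 0.17 and Perp at 0.35 ± 0.26 (FDR 1.00 each), and Ppl at 0.59 ± 0.21 (FDR 0.942). Dsp stood at 2592 and 2781 CPM in baseline butyrate mice, Jup at 599.8 and 647, and Perp at 2258 and 2067. In baseline skin their values lay between -0.10 and -0.07. After HDM in butyrate mice they lay between -0.09 and 0.17.

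Of 9 genes linked to corneodesmosome turnover, the kallikreins Klk5, Klk7, Klk8 and Klk14, the inhibitors Spink5 and Spink12, and the proteases St14, Ctsd and Ctsl, only Klk14 was called, after HDM in CTL mice (4.12 ± 0.80, FDR 0.0676), where 3.58% of all tested genes were. This protease, which can cleave desmosomal proteins, stood at 0.222 and 0.554 CPM in baseline CTL mice, at 0.281 and 0.333 in baseline butyrate mice, at 10.1 and 3.68 in lesional CTL mice and at 8.33 and 3.29 in lesional butyrate mice. All lesional mice were above all baseline mice, but the baseline CTL levels lay near the floor of 3 counts (0.166 CPM), so that the size of this value is uncertain. Of the 9 turnover genes, 4 had an unadjusted p below 0.05 after HDM in CTL mice, against 2983 of all 15163 tested genes. In the other comparisons 1 or 2 of 9 did, against 3.49% to 13.1% of all genes. Of 9 adherens junction genes, among them Cdh1, Cdh3 and the catenins, 0 were called by edgeR in any comparison. After HDM 1 of 9 had an unadjusted p below 0.05 in CTL mice and 1 of 9 in butyrate mice. Of all tested genes, 2983 of 15163 and 13.1% had such a p there. The other comparisons had 0 of 9, against 3.49% to 4.84% of all genes. After HDM in CTL mice the median of the adherens junction genes was 0.06.

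**Figure D4:**
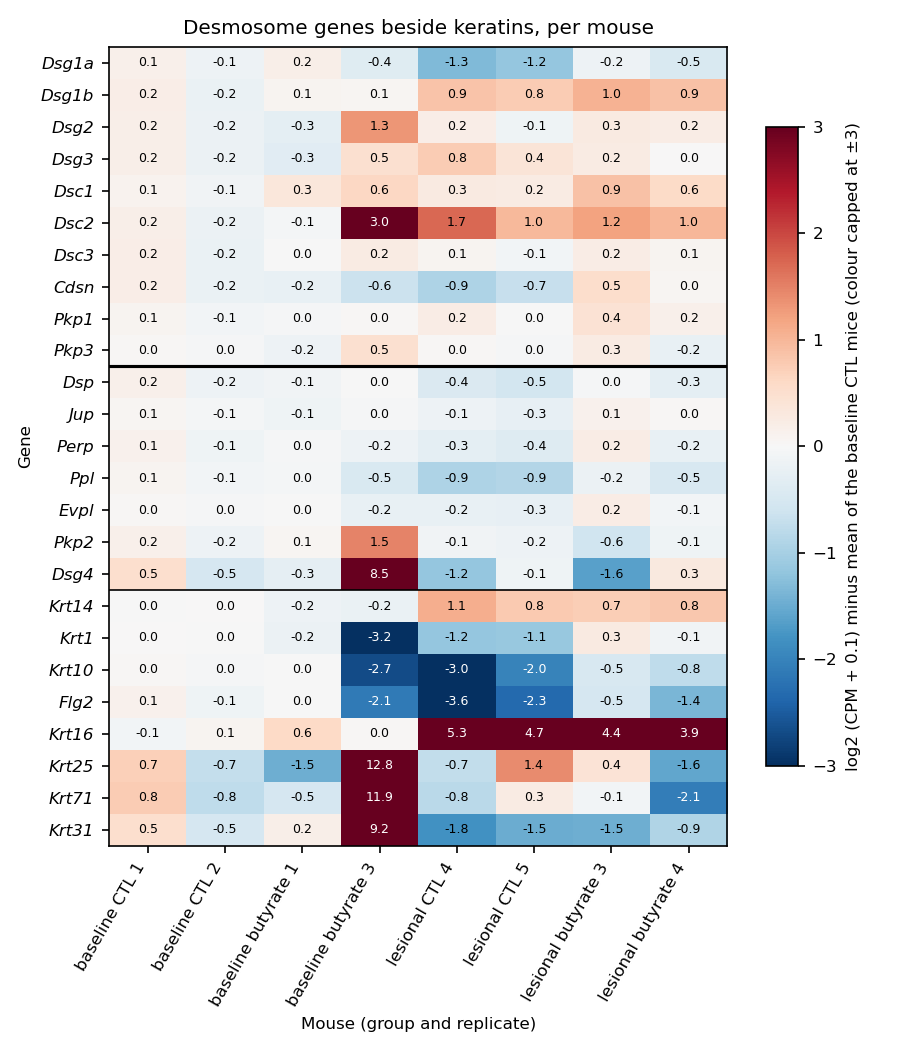
Log2 (CPM + 0.1) of each gene in each mouse minus the mean of the baseline CTL mice, for the 10 genes (top block), other desmosome genes (middle) and keratinocyte and hair markers (bottom), with colour capped at 3 and values printed. Dsg1a and Cdsn are lowest in the 2 lesional CTL mice, Krt10 and Flg2 are lowest in lesional CTL replicate 4, and Dsg4, Krt25, Krt71 and Krt31 are high in baseline butyrate replicate 3.

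Across the 8 mice the 10 genes did not vary as a block. As a description over 8 libraries that share these group and depth differences, the log2 CPM of Dsg1a correlated with that of Cdsn (Pearson r 0.722, and 0.779 without baseline butyrate replicate 3) and inversely with that of Dsg3 (-0.745 and -0.798). Its correlation with its own copy Dsg1b was -0.562 (-0.584). Dsg2 and Dsc2 correlated at 0.877, but at 0.654 without baseline butyrate replicate 3. For Dsg1a and Dsc1, the cadherins of the upper layers, the value was 0.025 (0.014).

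The 10 genes outside the lists whose log2 CPM was most like the mean of the set, among 14112 genes of at least 1 CPM on average, were Zfp35, Gm7808, Ube4a, Tex15, Gdpd1, Stk4, Zw10, Mettl14, Fastkd5 and Becn1 (Pearson r 0.983 to 0.965 over 8 libraries). The mean of the set itself spanned 7.49 to 8.16 log2 CPM, with baseline CTL replicate 2 lowest and baseline butyrate replicate 3 highest.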

How the data were processed

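RNA sequencing counts of dorsal skin from 8 mice, 2 in each of 4 groups, were analysed. Libraries were made from total RNA with the Illumina TruSeq RNA kit. The authors processed the reads with RNASik, aligned them with STAR 2.5.2 to GRCm38 and counted them per gene with featureCounts (the submitters' processing notes name both tools), and deposited raw counts of protein-coding genes, counted for the reverse strand, without normalization. Columns were matched to samples by label, and groups came from the treatment and disease state labels. No source states more than separate mice, so p-values measure the spread between these samples.

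From these counts, CPM were computed with TMM-scaled library totals, and CPM per kb with the exonic length of GENCODE vM21 (GRCm38). Genes were tested with edgeR 4.0.16 (R 4.3.3; glmQLFit with robust estimation, glmQLFTest) on all 8 mice, after filterByExpr with a minimum count of 10, and adjusted over 15163 genes by Benjamini-Hochberg. Fold changes used a prior count of 0.125. Genes were called at FDR below 0.1 and fold-change above 2, the thresholds of the study. Calls were recomputed with limma-voom from limma 3.58.1, with DESeq2 1.42.0, DESeq2-type size factors, library totals only, no filter, a minimum count of 50, the 4 mice compared, each of the 8 mice left out, and summed Dsg1 genes. The tests were checked on simulated data with less spread between mice than here and no outlying mouse. That check therefore does not measure their error rates in these data. Library totals of 18004136 to 21085544 counts put the floor of 3 counts at 0.138 to 0.169 CPM, which covers counting error only.

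The 10 genes and the lists were chosen with earlier results of these data known. Named genes were all 10, Dsp, Jup, Perp, Krt1 and Krt14, up to 4 called genes per list and comparison, and the 10 genes most like the mean of the set. The marker lists of basal keratinocytes, sebaceous gland, fibroblasts and adipocytes held 0 genes called by edgeR in any comparison. Per list and comparison, 0 to 3 genes had an unadjusted p below 0.05. Of all tested genes, 2983 of 15163 had such a p after HDM in CTL mice and 3.49% to 13.1% in the other comparisons. Promoter sequence was taken from RefSeq.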

Additional observations from a re-analysis of the deposited data

Results flagged for a closer look

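The effect of butyrate on Cdsn, the corneodesmosin gene, had opposite signs in lesional and baseline skin. Both lesional butyrate mice (699 and 505 CPM) were above both lesional CTL mice (258 and 305 CPM), and both baseline butyrate mice (419.7 and 314 CPM) were below both baseline CTL mice (566 and 423 CPM), though the nearest values of the baseline groups were almost equal. In baseline skin the effect was -0.43 ± 0.26 (FDR 0.714), and it was -0.21 without baseline CTL replicate 1 and -0.24 without baseline butyrate replicate 3. The difference between the effects was 1.53 ± 0.37 on the log2 scale. It did not pass edgeR's test adjusted over all genes (FDR 0.840), and its adjusted value ranged from 0.0187 without baseline butyrate replicate 1 to 1.00 without lesional CTL replicate 4. The granular layer markers summed to 2183 and 3598 CPM in lesional butyrate mice, 1298 and 1373 in lesional CTL mice, 2253 and 1314 in baseline butyrate mice, and 2690.4 and 2295 in baseline CTL mice, and their part in the difference was not tested.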

How the results depend on the processing

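No paired analysis was possible because no pair of compared groups has more than 1 replicate number in common. With 2 mice per group, leaving out a mouse leaves a single mouse that is assumed to vary like the other groups. The number of genes of the set called was 0 in lesional skin with butyrate and 1 with DESeq2, and it was 0 for all left-out mice. Leaving out 1 mouse in turn gave 0 to 2 called with butyrate in baseline skin, 0 to 2 after HDM in CTL mice, 0 to 2 after HDM in butyrate mice and 0 to 4 for the difference between the butyrate effects, where DESeq2 gave 1. After HDM in CTL mice 2 were called when only the 4 mice compared were fitted, and 2 at the FDR alone. In that comparison all genes called numbered 543, 1093 with DESeq2, 1918 with the 4 mice compared and 0 without either baseline CTL mouse. After HDM in butyrate mice 53 were called, 698 with DESeq2, 0 with the 4 mice compared and 2990 without baseline butyrate replicate 1. With butyrate, DESeq2 called 124 genes in lesional and 58 in baseline skin, where edgeR called 0. With the 4 mice compared, edgeR called 25 in lesional and 0 in baseline skin. Library totals alone moved the median of all genes from -0.02 to 0.11 after HDM in CTL mice and from -0.04 to -0.10 for the difference. The cause of these shifts was not tested.

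Several directions turned. After HDM in CTL mice Dsc3 (-0.01) was 0.0073 with limma-voom, 0.0107 with DESeq2 and its size factors, 4.75e-04 without the filter, 0.0012 with the 4 mice compared and 0.12 with library totals, and Pkp3 (0.00 rounded) was 0.015 with DESeq2 and its size factors, 0.0046 without the filter, 0.0047 with the 4 mice and 0.13 with library totals. Pkp1 in baseline skin (0.00 rounded) was 0.0565 with library totals and 0.0093 with the 4 mice, and the difference for Dsc3 (0.03) was -0.0475 with library totals. In place of Dsg1b (0.80, 0.88 and 0.06), the summed Dsg1 genes gave -0.997 and -0.12 after HDM in CTL and butyrate mice and -0.0677 with butyrate in baseline skin. The log2 change of the desmoglein ratio was 0.59, 0.24 and 0.82 with Dsg1b alone over Dsg3 (butyrate in lesional skin, HDM in CTL mice, HDM in butyrate mice), and -1.81 with Dsg1a alone after HDM in CTL mice.

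Leaving out each mouse in turn, genes that turned ranged as follows. With butyrate in lesional skin Dsc2 ranged from -0.63 to 0.12 and Pkp3 from -0.22 to 0.26. With butyrate in baseline skin the ranges were -0.37 to 0.16 for Dsg1a, -0.12 to 0.26 for Dsg1b, -0.29 to 1.32 for Dsg2, -0.36 to 0.46 for Dsg3, -0.0728 to 3.01 for Dsc2, -0.0704 to 0.32 for Dsc3, -0.0753 to 0.0657 for Pkp1 and -0.16 to 0.47 for Pkp3. After HDM in CTL mice they were -0.15 to 0.21 for Dsg2, -0.19 to 0.20 for Dsc3, -0.0111 to 0.22 for Pkp1 and -0.0382 to 0.0370 for Pkp3. After HDM in butyrate mice they were -0.47 to 0.0676 for Dsg1a, -1.09 to 0.52 for Dsg2, -0.34 to 0.48 for Dsg3, -1.91 to 1.17 for Dsc2, -0.0953 to 0.15 for Dsc3 and -0.43 to 0.20 for Pkp3. For the difference they were -0.12 to 0.26 for Dsg1b, -1.12 to 0.49 for Dsg2, -0.17 to 0.14 for Dsc1, -0.18 to 0.21 for Dsc3 and -0.43 to 0.20 for Pkp3. Dsg1a and Cdsn kept their direction after HDM in CTL mice and with butyrate in lesional skin under every alternative run. The lowest value of the set, 11.2 CPM, lay above the floor of 3 counts, 0.169 CPM at most.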
